A study of Mus musculus with 40 samples.

Results

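The homeostatic microglia genes examined here were 10 genes, P2ry12, P2ry13, Gpr34, Cx3cr1, Csf1r, Siglech, Tmem119, Fcrls, Olfml3 and Sall1, chosen by name from the 55539 features of a bulk RNA sequencing count matrix. Each name matched 1 feature, and all 10 members passed the filter on low counts. The tissue was somatomotor cortex of the left hemisphere, from female mice of 3xTg-AD, a line on the C57BL/6J background that carries human mutant APP and MAPT transgenes under the neuronal Thy1 promoter, at 2 to 4 months of age. Every group, sham included, was of this line, and no wild type mice were sequenced. Mice received closed head injuries (CHI) from a dropped weight under isoflurane, at most once a day, with the skull intact. Cortex was collected 30 min, 4 h or 24 h after 1 injury (1xCHI, 3, 3 and 4 mice), 3 injuries (3xCHI, 3, 2 and 4 mice) or 5 injuries (5xCHI, 3, 3 and 4 mice), and 24 h after 2 injuries (2xCHI, 3 mice) or 4 injuries (4xCHI, 3 mice). Sham mice (4) underwent anesthesia without impact. In all, 39 of 40 samples were used, since the study left out sample 30 (3xCHI at 4 h) on its protein data.

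Microglia are the resident macrophages of brain tissue, and in the resting state they survey it with motile processes. P2ry12 and P2ry13 are Gi-coupled receptors for ADP, and P2ry12 guides those processes toward sites of injury. Gpr34 is a related receptor for lysophosphatidylserine. Cx3cr1 receives the neuronal chemokine fractalkine (Cx3cl1), and Csf1r receives the growth factors Csf1 and Il34, on which microglia depend for survival. Siglech, Tmem119, Fcrls and Olfml3 are surface or secreted proteins that mark microglia, and Sall1 is a transcription factor that maintains their identity. Many of these genes are known to fall when microglia become strongly reactive.

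P2ry12 (chromosome 3, 59216272 to 59262871, minus strand, GRCm38) and P2ry13 (chromosome 3, 59207892 to 59210882, minus strand) lie 5389 bases apart, and both lie inside the span of Med12l, which runs on the other strand. Fcrls (87250758 to 87263738) and Olfml3 (103722222 to 103738001) are on the minus strand of the same chromosome. Among the members, P2ry12 and P2ry13 differed least and Fcrls and Olfml3 most between 5 injuries and 1, so the 250 bases before the start of each are shown. RefSeq promoters of GRCm38.p6 were found for 7 of the 10 members; Tmem119, Csf1r and Gpr34 had none in the table. Capitals mark GAGGAA, a core motif of PU.1 (Spi1), the lineage factor of macrophages and microglia.
P2ry12 (chr3:59262986-59263235, minus strand): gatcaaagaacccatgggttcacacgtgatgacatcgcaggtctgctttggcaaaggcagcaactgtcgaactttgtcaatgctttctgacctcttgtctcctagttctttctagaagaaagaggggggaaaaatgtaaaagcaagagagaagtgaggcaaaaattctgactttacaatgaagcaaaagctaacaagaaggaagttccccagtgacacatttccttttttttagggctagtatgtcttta
P2ry13 (chr3:59210883-59211132, minus strand): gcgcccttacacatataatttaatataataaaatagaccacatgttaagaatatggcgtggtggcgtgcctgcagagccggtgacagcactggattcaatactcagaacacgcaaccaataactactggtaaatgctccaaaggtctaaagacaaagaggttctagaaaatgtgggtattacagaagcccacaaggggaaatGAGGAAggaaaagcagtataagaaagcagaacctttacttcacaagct
Fcrls (chr3:87263525-87263774, minus strand): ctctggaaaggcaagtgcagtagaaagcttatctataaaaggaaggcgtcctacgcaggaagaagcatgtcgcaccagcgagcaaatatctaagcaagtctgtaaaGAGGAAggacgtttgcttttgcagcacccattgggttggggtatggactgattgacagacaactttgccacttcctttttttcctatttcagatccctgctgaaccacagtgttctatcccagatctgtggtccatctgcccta
Olfml3 (chr3:103738002-103738251, minus strand): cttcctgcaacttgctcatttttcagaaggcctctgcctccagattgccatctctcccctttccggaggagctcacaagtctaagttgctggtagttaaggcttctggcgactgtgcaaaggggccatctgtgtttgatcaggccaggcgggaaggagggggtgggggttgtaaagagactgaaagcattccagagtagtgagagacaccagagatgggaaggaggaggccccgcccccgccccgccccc
On either strand, GAGGAA occurred in the windows of 2 of the 7 members, Fcrls (starting 144 bases before the start) and P2ry13 (48 bases before), against 23.3% of 32851 mouse promoters of the same length. Starts were those of RefSeq. That of Fcrls lies inside the span given above, as do most of its window and its GAGGAA. The C/EBP motif TTGCNNAA occurred in P2ry12 and Siglech and in 9.56% of all promoters. The AP-1 motif TGANTCA occurred in none of the 7 and in 6.75% of all promoters. No match overlapped another. These matches are letters in a window and were not tested as binding sites.

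Depth ranged from 15926014 to 27859547 counts per sample (median 19028778), and members had a median of 220 (Siglech) to 1554 (Csf1r) counts. Human MAPT was counted in every sample at 5.80 to 40.3 CPM (counts of a gene over 1000000 counts of its library), and summed CPM of 8 neuron markers ran from 7011 to 11983. Samples 10 (5xCHI at 4 h) and 11 (5xCHI at 24 h) stood apart from the other 37, with Gfap, an astrocyte filament, at 1671 and 2490 CPM against at most 560.0 elsewhere. Samples numbered 1 to 18 also differed from those numbered 19 to 40. On the first principal component of all tested features (34.4% of variance), 14 of 18 and 4 of 21 samples were on the same side. The labels give no batch for this split. The lower numbers hold 1 of 4 sham, 6 of 10 1xCHI, 5 of 9 3xCHI and 6 of 10 5xCHI samples, and no 2xCHI or 4xCHI sample. Members and named list genes that passed the test are therefore also given without samples 10 and 11 and within each range. P-values measure the spread between mice as labelled, and in bulk tissue fewer microglia and less RNA per microglial cell cannot be told apart.

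Levels were first compared between members, per kilobase of exon. Csf1r had a median of 14.5 CPM per kb and P2ry12 14.1, and Csf1r was above P2ry12 in 14 of 39 samples, so their order was not resolved. Cx3cr1 (11.3) and Tmem119 (9.61) followed, and P2ry12 exceeded Cx3cr1 in 32 samples and Cx3cr1 exceeded Tmem119 in 34. Gpr34 (6.55), Fcrls (5.87), P2ry13 (4.86), Sall1 (3.87), Siglech (3.40) and Olfml3 (2.51) were lower. Tmem119 was above Gpr34 in all 39 samples, whereas Gpr34 was above Fcrls in only 26 and Sall1 above Siglech in 29. The spread over samples separated the members in another way. Tmem119, P2ry12, Sall1, P2ry13 and Siglech had coefficients of variation of 14.9% to 19.4%, Cx3cr1, Gpr34 and Csf1r 21.8% to 26.7%, and Olfml3 and Fcrls 50.2% and 66.0%. Fcrls ranged 6.72-fold from lowest to highest sample and P2ry12 1.96-fold.

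**Figure D1:**
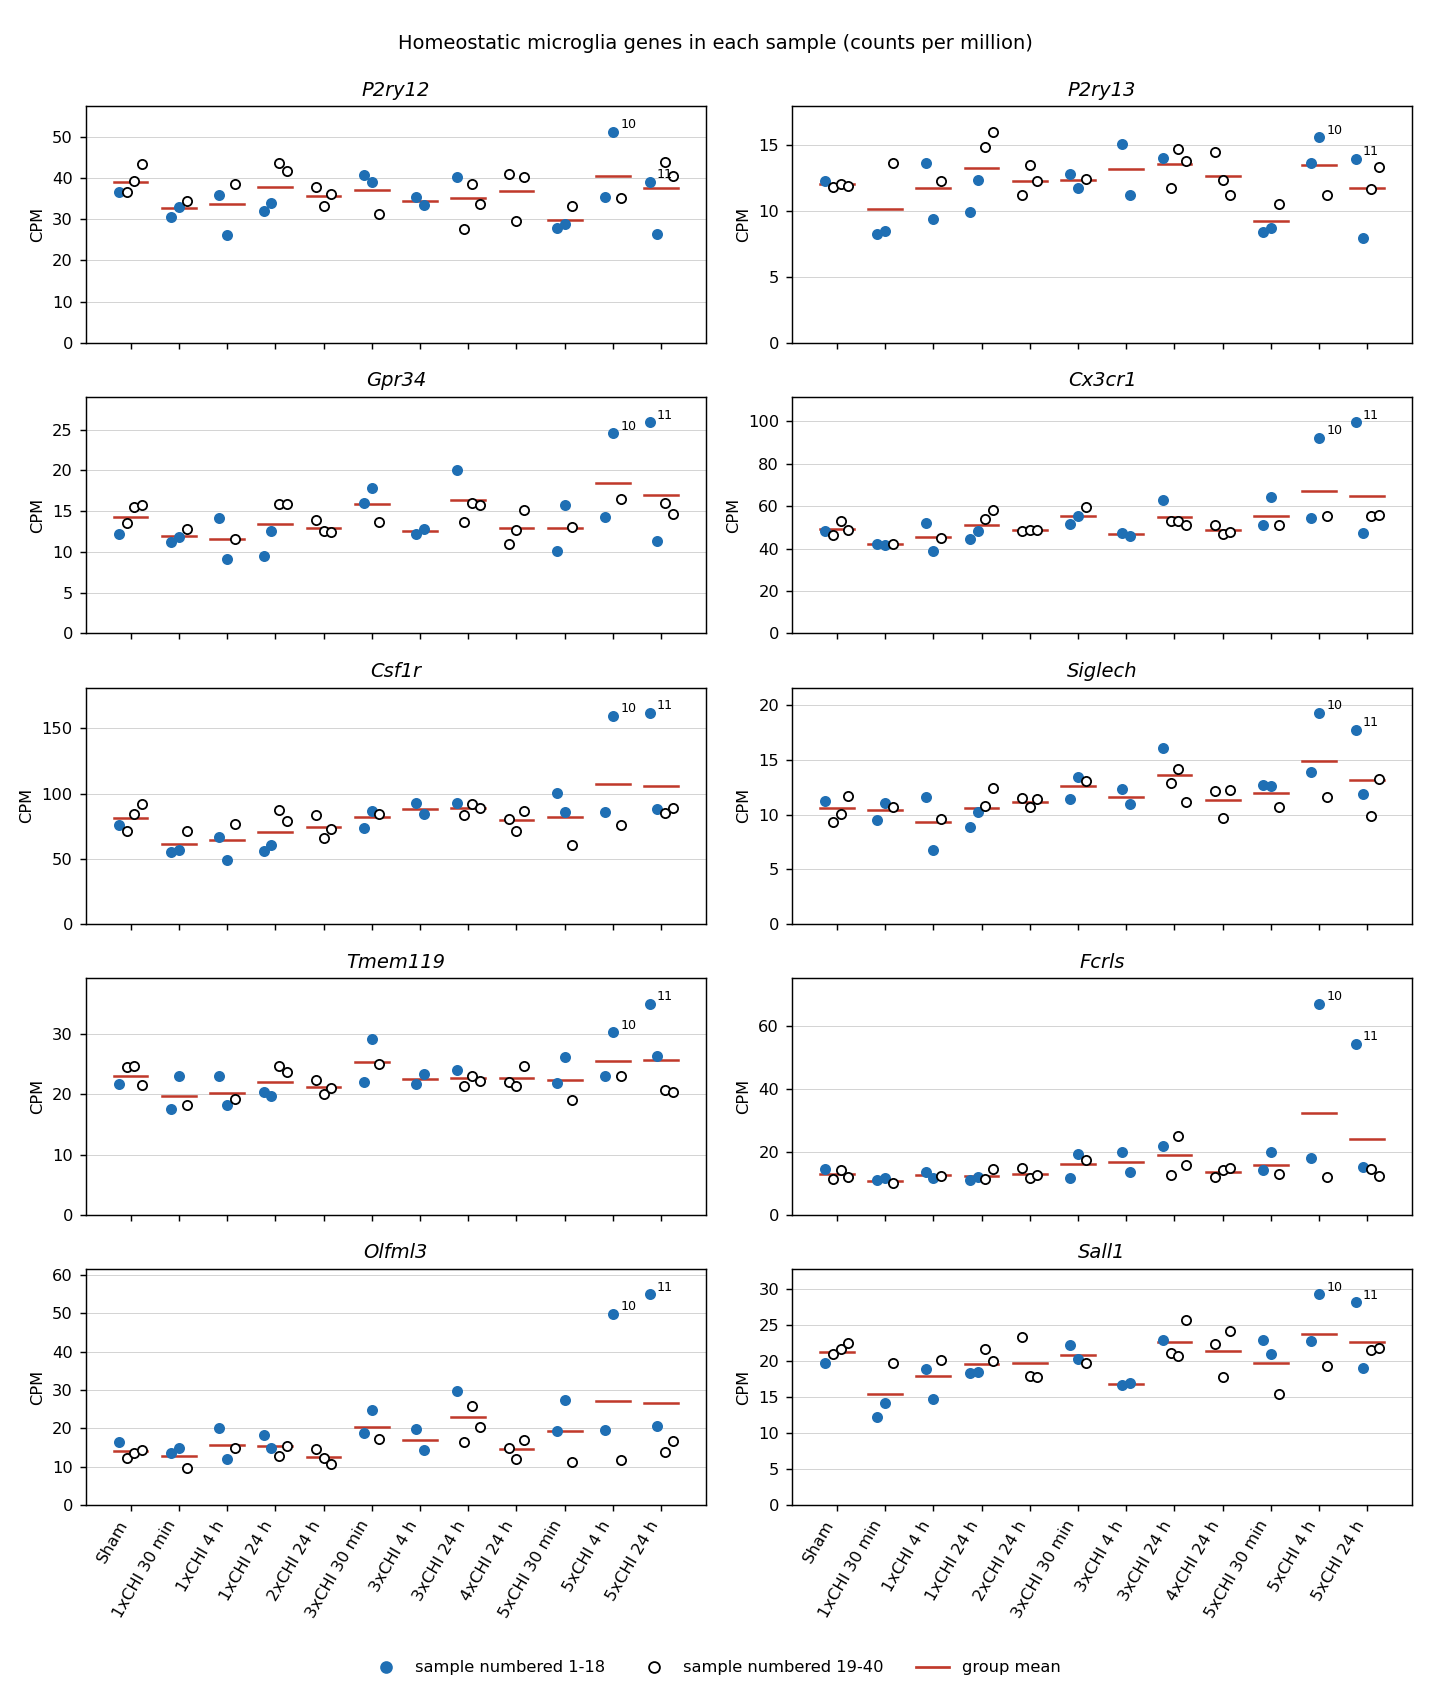
CPM of each member (a panel per gene, linear axis from 0) in 39 samples, by injury and time group. Points are mice, filled for samples numbered 1 to 18 and open for 19 to 40, and red lines are group means. Samples 10 and 11 carry their number and lie above all other samples in 8 of the 10 panels, P2ry12 and P2ry13 being the exceptions.

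The ADP receptors were examined first, since loss of P2ry12 is a usual sign of microglial reactivity. P2ry12 was 36.7, 36.6, 39.2 and 43.4 CPM in the 4 sham mice. It ranged from 26.1 to 43.7 (median 34.3) in the 10 1xCHI mice, from 27.7 to 40.8 (median 35.3) in the 9 3xCHI mice and from 26.5 to 51.3 (median 35.3) in the 10 5xCHI mice. The 1xCHI and 5xCHI values reached past the sham range on both sides, and the highest 3xCHI sample was within it. The lowest group mean was 29.9 ± 2.92 CPM (SD, n = 3) 30 min after the fifth injury, and the highest was 40.6 ± 9.26 (SD, n = 3) 4 h after it. That highest mean rested on sample 10 (51.3 CPM), and the other 2 samples of the group had 35.1 and 35.4, below the 4 sham values. P2ry13 was more even in sham, at 11.8, 11.9, 12.1 and 12.3 CPM, and ranged from 8.29 to 16.0 after 1 injury and from 7.97 to 15.6 after 5. Its lowest group was again 5xCHI at 30 min, with 8.38, 8.73 and 10.6 CPM, all below the 3 values before that injury (11.2, 12.4 and 14.5). That difference was -0.44 ± 0.20 (log2, SE) in edgeR, with an adjusted p of 0.780, so it did not pass.

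Gpr34 had a mean of 14.3 ± 1.66 CPM in sham (SD, n = 4), 12.5 ± 2.31 after 1 injury (n = 10) and 16.2 ± 5.18 after 5 (n = 10). Without samples 10 (24.5 CPM) and 11 (25.9 CPM) the 5xCHI mean was 13.9 ± 2.30 (n = 8). The 1xCHI, 5xCHI and sham ranges overlapped.

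Csf1r, the growth factor receptor, was 76.1, 71.3, 84.5 and 91.9 CPM in sham. After 1 injury it ran from 48.9 to 87.2 (median 63.5), after 3 from 73.9 to 92.7 (median 87.1) and after 5 from 60.8 to 162 (median 87.2). The lowest values were in 1xCHI and the highest in samples 10 and 11. All 6 1xCHI samples numbered 1 to 18 (48.9 to 66.7 CPM) lay below every sham sample, and the 4 numbered 19 to 40 (71.0 to 87.2) lay within or just under the sham range. In 5xCHI, samples 10 and 11 had 159.5 and 162 CPM, 1.97 and 2.00 times the sham mean, and the other 8 had 60.8 to 100.4. The 24 h means were 70.8 ± 14.8 (1xCHI, n = 4) and 74.1 ± 8.65 (2xCHI, n = 3), then 89.3 ± 4.13 (3xCHI, n = 4), 79.4 ± 7.95 (4xCHI, n = 3) and 106 ± 37.2 (5xCHI, n = 4). Without sample 11 the 5xCHI mean at 24 h was 87.5 ± 1.94 (n = 3). The 3 2xCHI samples (66.2, 72.9 and 83.4 CPM) lay just below the 4 3xCHI samples (83.6 to 92.7).

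Cx3cr1, the fractalkine receptor, was 48.3, 46.6, 53.2 and 49.0 CPM in sham and ran from 39.0 to 58.2 after 1 injury and from 47.5 to 99.5 after 5. In 5xCHI 7 of 10 samples were above every sham sample, and in 1xCHI 6 of 10 were below every one. After 3 injuries it ran from 46.1 to 63.0 CPM, with 4 of 9 samples above every sham sample. The 3 2xCHI samples were within 48.3 to 48.8 CPM.

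Fcrls, an Fc receptor-like scavenger protein, and Olfml3, a secreted matrix protein, varied most. Fcrls was 14.5, 11.5, 14.1 and 11.9 CPM in sham, 9.99 to 14.5 after 1 injury, 11.7 to 25.0 after 3 (median 17.2) and 11.9 to 67.1 after 5 (median 14.9). Olfml3 was 16.5, 12.3, 13.5 and 14.4 CPM in sham, 9.83 to 20.2 after 1 injury, 14.3 to 29.8 after 3 (median 20.0) and 11.3 to 54.9 after 5 (median 19.6). In 3xCHI, 6 of 9 samples were above every sham sample for Fcrls and 7 of 9 for Olfml3. For both genes the top of the range was samples 10 and 11, with Fcrls at 67.1 and 54.3 CPM (5.17 and 4.18 times the sham mean) and Olfml3 at 49.8 and 54.9 CPM (3.51 and 3.87 times). The 3xCHI samples 2 and 37 came next for Fcrls, at 21.9 and 25.0 CPM.

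Siglech, a sialic acid-binding lectin, was 11.3, 9.4, 10.1 and 11.7 CPM in sham, and 6 of 9 3xCHI and 7 of 10 5xCHI samples were above every sham sample. Tmem119, a membrane protein used to tell microglia from other macrophages, stayed in a narrow band, with means from 19.6 ± 3.02 CPM (1xCHI at 30 min, n = 3) to 25.6 ± 6.84 (5xCHI at 24 h, n = 4) against 23.1 ± 1.71 in sham (n = 4). Sall1 was 19.7, 21.0, 21.7 and 22.6 CPM in sham. In 1xCHI at 30 min it was 12.2, 14.2 and 19.8 CPM, the lower 2 values being below every sham sample.

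**Figure D2:**
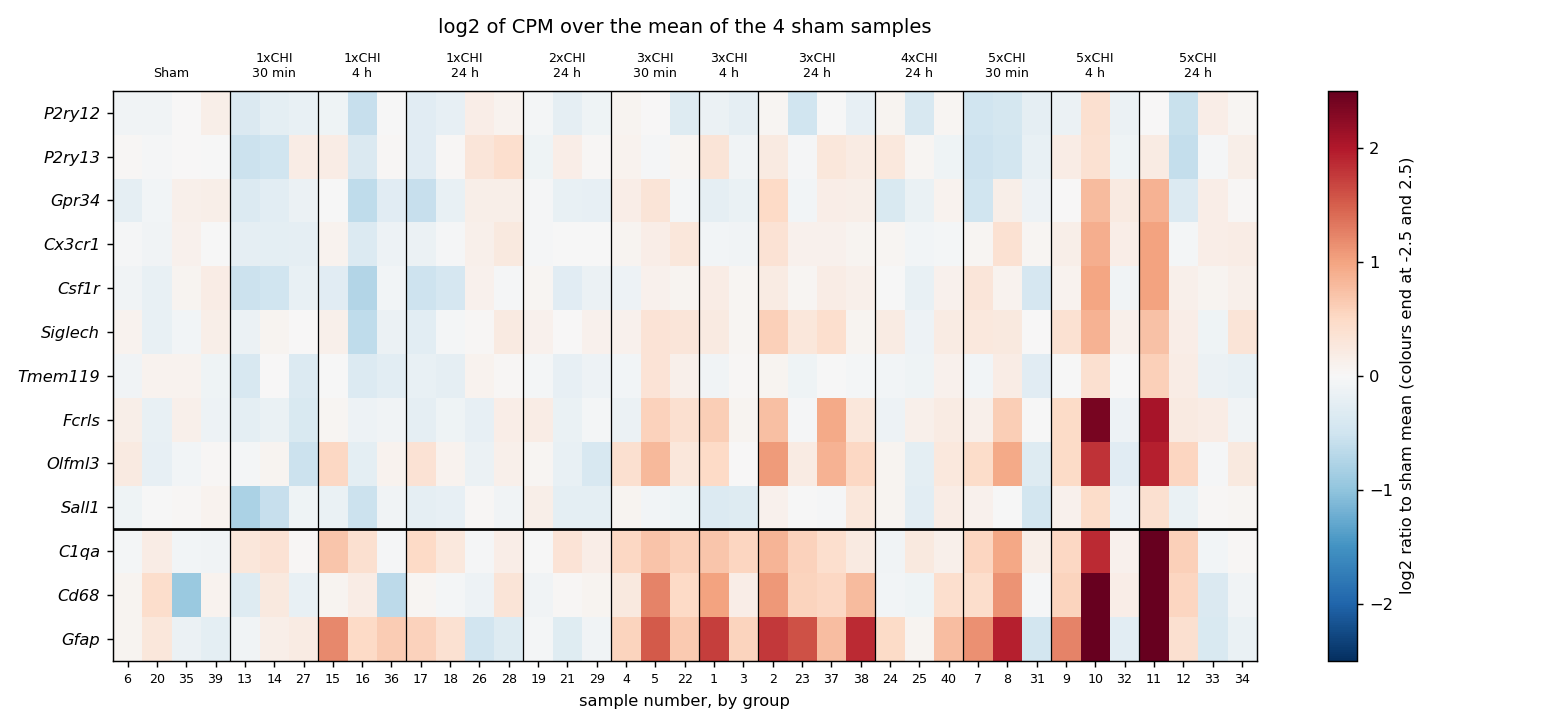
log2 ratio of CPM to the mean of 4 sham samples for the 10 members (above the line) and 3 other glial genes (below it), with 1 column per sample in group order and sample numbers underneath. Colours end at -2.5 and 2.5, which Gfap, Cd68 and C1qa exceed in sample 11. Samples 10 and 11 are red for Fcrls and Olfml3 and paler for P2ry12, P2ry13, Tmem119 and Sall1, which lie at 1.00 to 1.52 times the sham mean there.

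To ask whether the members changed with injury, each injury number was compared with sham, each time with the group before that injury, the times with each other and the injury numbers with each other at 24 h. In edgeR's quasi-likelihood test on all 15224 features, no member passed an adjusted p of 0.05 in any of the 5 comparisons with sham or the 9 with the group before that injury, and none passed in the test between injury numbers at 24 h. The background was 0% of features called in each of these 15 comparisons. At unadjusted p under 0.05 there were 4 of 10 members in 5xCHI against sham (11.6% of all features), and in 5xCHI against 4xCHI there were 5 at 4 h (5.33%), 2 at 24 h (6.44%) and 1 at 30 min (6.36%). There was 1 member in 3xCHI at 24 h (4.57%), 1 in the 24 h test (4.83%) and 1 in 1xCHI at 30 min, where the share of all features was higher (19.7%). The other 8 comparisons had 0. DESeq2 called 0 members in all 15 and up to 28 features. The test between times called 0 members and 0.0328% of features, and the test between all 12 groups 0 members and 0.0131%. In these, 0 and 3 members had an unadjusted p under 0.05 (4.25% and 7.02% of all features), and DESeq2 called 0 members and 53 and 199 features.

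The differences from sham nevertheless had the sizes that follow. In 1xCHI, 9 of 10 members had negative log2 fold changes, with a median of -0.12 against 0.01 over all features, and the extremes were Csf1r (-0.28 ± 0.16, adjusted p = 0.333) and Sall1 (-0.24 ± 0.13, adjusted p = 0.315). In 3xCHI, 8 of 10 were positive (median 0.10, all features -0.00), led by Olfml3 (0.55 ± 0.29, adjusted p = 0.911). In 5xCHI, 8 of 10 were positive (median 0.23, all features 0.01), led by Fcrls (0.88 ± 0.33) and Olfml3 (0.78 ± 0.29), both with an adjusted p of 0.374 in edgeR. Cx3cr1 (0.34 ± 0.13) and Siglech (0.33 ± 0.14) followed with adjusted p of 0.383 and 0.391, and P2ry12 was at -0.11 ± 0.13 (0.689). Without samples 10 and 11, median Fcrls in 5xCHI was 14.5 CPM and median Olfml3 18.1, against sham means of 13.0 and 14.2. In 2xCHI and 4xCHI every member lay between -0.16 and 0.09. The 5 comparisons share the 4 sham mice, 3 of which are numbered 19 to 40.

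To set repeated against single injury, 5xCHI was compared with 1xCHI at matched times, a comparison in which both sides hold the same number of samples from each range at each time. Csf1r was higher by 0.55 ± 0.13 (log2, SE; adjusted p = 0.0294) and Cx3cr1 by 0.41 ± 0.10 (adjusted p = 0.0369) in edgeR. These were 2 of 10 members, against 1.1% of the 15224 features (167, of which 78 were higher and 89 lower). The 10 members had a median of 0.36 against -0.00 over all features. Fcrls was just outside the threshold (0.92 ± 0.24, adjusted p = 0.0504), and Siglech (0.37 ± 0.10), Sall1 (0.30 ± 0.09) and Olfml3 (0.69 ± 0.22) had adjusted p of 0.0610, 0.0868 and 0.0979. Gpr34 (0.34 ± 0.13) and Tmem119 (0.22 ± 0.08) had adjusted p of 0.161 and 0.183. The ADP receptors had the smallest values, P2ry12 at 0.02 ± 0.10 (adjusted p = 0.947) and P2ry13 at -0.06 ± 0.11 (0.820). DESeq2 called 6 members (Csf1r, Cx3cr1, Fcrls, Siglech, Olfml3 and Sall1) against 3.44% of features.

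These calls depended on which samples were fitted. Without samples 10 and 11 no member passed (background 0.059%), with Csf1r at 0.34 ± 0.10 and Cx3cr1 at 0.22 ± 0.06, both at an adjusted p of 0.0799, and Fcrls at 0.31 ± 0.13 (0.190). Olfml3 was at 0.23 ± 0.15 there (adjusted p = 0.404, edgeR), at 0.97 ± 0.26 in samples 1 to 18 and at -0.015 ± 0.17 in samples 19 to 40. Among samples 1 to 18 alone, 6 against 6, 7 members passed (all but P2ry12, P2ry13 and Gpr34) against 14.2% of features, with Csf1r at 0.94 ± 0.16 and Fcrls at 1.27 ± 0.33. Among samples 19 to 40, 4 against 4, none passed (background 0.0449%), and Csf1r was at -0.061 ± 0.10, Fcrls at 0.12 ± 0.20 and Cx3cr1 at 0.18 ± 0.06, with 5 of 10 members positive. Over 20 fits that each left out 1 of the 1xCHI and 5xCHI mice, Csf1r ran from 0.43 to 0.62 (adjusted p from 0.0102 to 0.0948, edgeR) and Cx3cr1 from 0.32 to 0.45 (0.0233 to 0.113). No member passed when sample 7, 8 or 10 of 5xCHI, or 1 of samples 13 to 18 of 1xCHI, was the mouse left out. A fit to these 20 mice alone called 0 members and 0% of features, with Csf1r at 0.56 ± 0.16 (adjusted p = 0.313, edgeR). A test of the difference between the ranges (an interaction term, 20 samples) called 0 members and 0% of 15224 features after adjustment, and 3145 features had an unadjusted p under 0.05. The difference (samples 19 to 40 minus 1 to 18) was -0.97 ± 0.22 for Csf1r and -0.63 ± 0.16 for Sall1, with adjusted p of 0.0820 and 0.0863. What distinguishes the ranges cannot be told from the labels, and its part in these values was not tested.

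**Figure D3:**
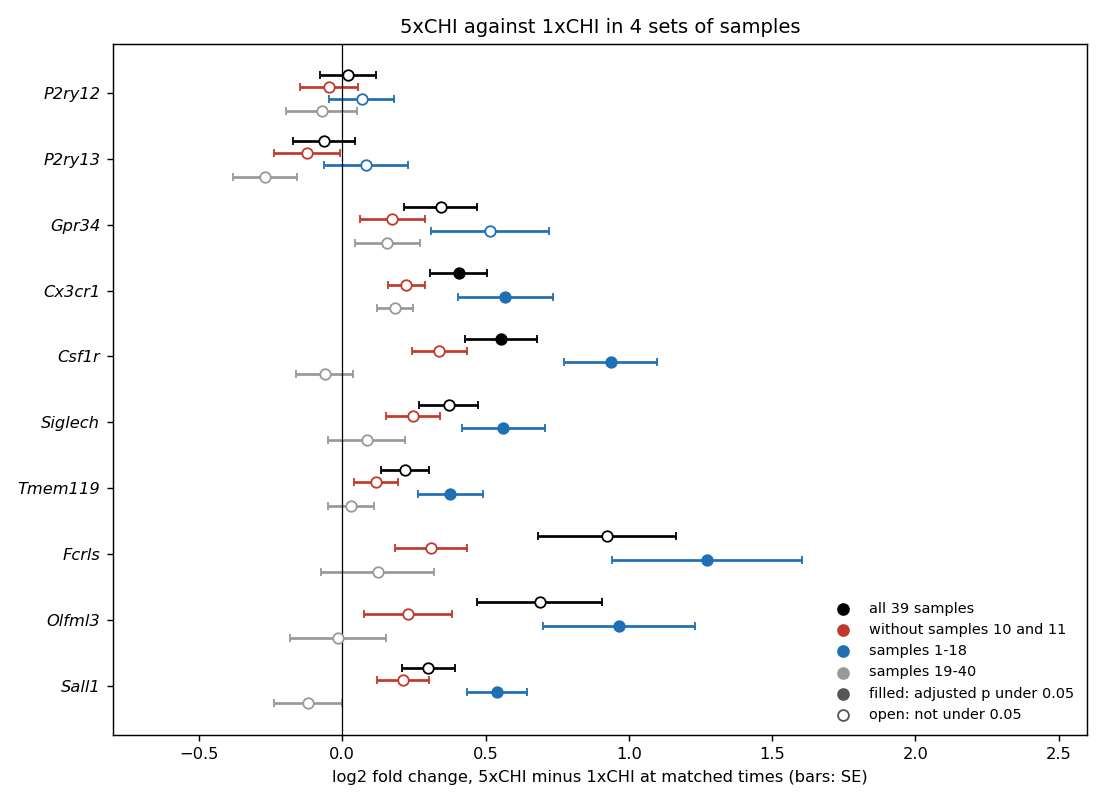
log2 fold change of each member in 5xCHI against 1xCHI at matched times, with SE, in all 39 samples (black), without samples 10 and 11 (red), in samples 1 to 18 (blue) and in samples 19 to 40 (grey). Filled points passed an adjusted p of 0.05 in edgeR. Blue points are filled for 7 members, black for 2, and no red or grey point is filled.

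In each range the raw levels were as follows. Among samples 1 to 18, Csf1r was 48.9 to 66.7 CPM in the 6 1xCHI mice and 85.9 to 162 in the 6 5xCHI mice, without overlap, also when samples 10 and 11 are set aside. Among samples 19 to 40 it was 71.0 to 87.2 in 4 1xCHI and 60.8 to 88.7 in 4 5xCHI mice. Fcrls was likewise apart in the first range (10.9 to 13.5 against 14.3 to 67.1 CPM) and overlapping in the second (9.99 to 14.5 against 11.9 to 14.7). Cx3cr1 and P2ry12 overlapped in both ranges, Cx3cr1 at 39.0 to 52.1 against 47.5 to 99.5 CPM in the first. In the first range 14.2% of all features passed, and the share of features without overlap was not counted.

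With 3xCHI against 1xCHI at matched times, all 10 log2 fold changes were positive (median 0.20, all features -0.01), and none passed, against a background of 0%. Csf1r (0.38 ± 0.13, adjusted p = 0.378), Siglech (0.29 ± 0.11, 0.418) and Fcrls (0.51 ± 0.25, 0.525) had an unadjusted p under 0.05 in edgeR, as 3 of 10 members against 9.47% of all features, and DESeq2 called 0 members and 13 features. This comparison shares the 1xCHI mice with the one above.

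A call was made elsewhere in a single further setting. When sample 27 was left out of 1xCHI at 30 min, leaving samples 13 and 14, Sall1 was at -0.61 ± 0.17 against sham (adjusted p = 0.0161) in edgeR, as the 1 member among 23.6% of features called. With sample 27, which had 19.8 CPM, Sall1 was at -0.42 ± 0.16 (adjusted p = 0.189). Samples 13 and 14 are both numbered 1 to 18 and 3 of the 4 sham mice 19 to 40. Without sample 27, only 1 sham mouse, sample 6, sets injury apart from the split by sample number. The part of each was not tested.

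Differences among the members were then examined as ratios within each sample, which remove the scaling between libraries. The ratios were chosen after the values were seen, with members that differed most and least in the same comparison, so they are given as a description with no test. Csf1r to P2ry12 was 1.95 to 2.16 in sham, 1.73 to 2.06 in 1xCHI (median 1.86) and 1.83 to 4.14 in 5xCHI (median 2.71). The mean log2 ratio in 5xCHI minus that in 1xCHI, averaged over the times, was 0.51 for Csf1r, 0.36 for Cx3cr1 and 0.68 for Fcrls, each to P2ry12. Without samples 10 and 11 these differences were 0.40, 0.27 and 0.34. In samples 1 to 18 they were 0.84, 0.47 and 1.03, and in samples 19 to 40 they were 0.01, 0.26 and 0.20.

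**Figure D4:**
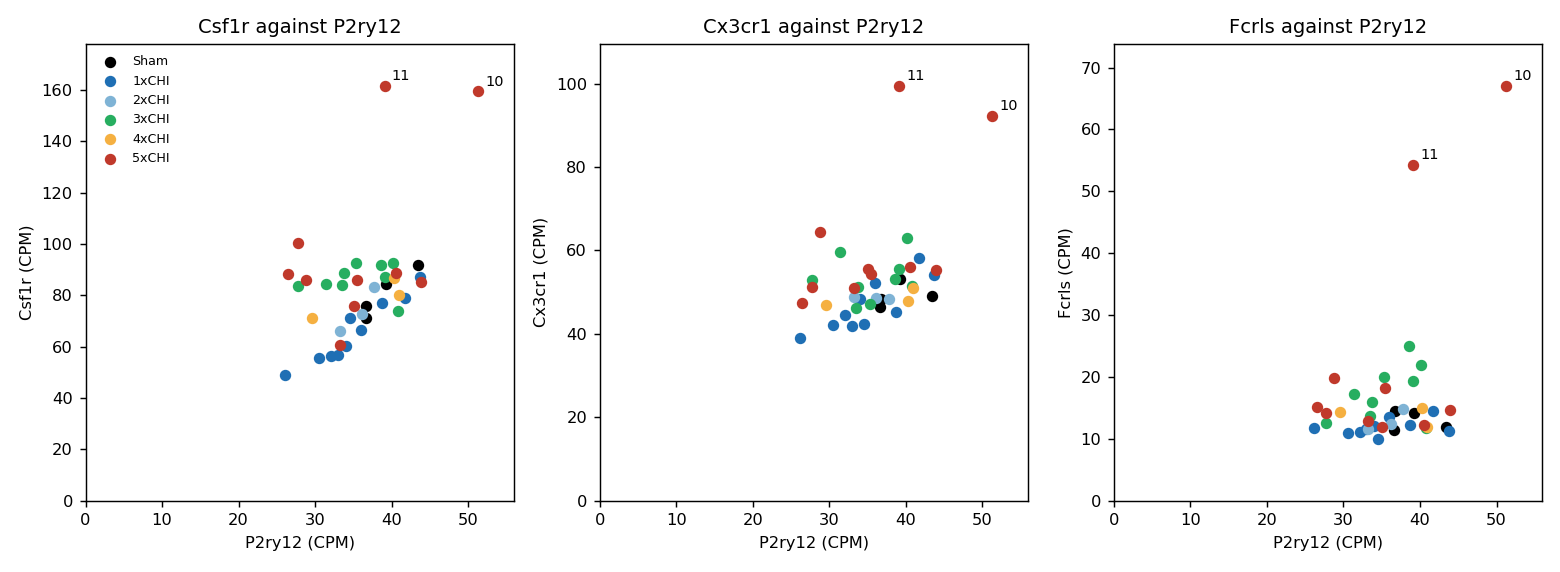
Csf1r, Cx3cr1 and Fcrls (vertical axes, CPM) against P2ry12 (horizontal axis, CPM) in 39 mice, coloured by injury number. Samples 10 and 11 are marked. Sample 11 has P2ry12 at 39.1 CPM, close to the sham mean, with the highest Csf1r and Cx3cr1 of all samples.

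The members were also unequal within samples 10 and 11. Against the sham mean, sample 10 had P2ry12 at 1.32 times and P2ry13 at 1.30 times, and sample 11 had them at 1.00 and 1.16 times. In the same samples Cx3cr1 was at 1.87 and 2.02 times, Gpr34 at 1.72 and 1.82, Siglech at 1.82 and 1.67, Tmem119 at 1.31 and 1.52, and Sall1 at 1.38 and 1.33. Tmem119 in sample 10 was thus no higher against sham than P2ry12. Both samples were above all other 37 for every member except P2ry12, where 11 samples exceeded sample 11, and P2ry13, where 1 exceeded sample 10 and 6 exceeded sample 11. Genes of reactive glia were further from sham there, with Cd68, a lysosomal marker, at 5.93 and 9.13 times, and C1qa, a complement subunit, at 3.64 and 6.12 times. Snap25, a neuronal synaptic protein, was at 0.65 and 0.67 times. The summed CPM of the 6 oligodendrocyte markers was 7753 and 8741 in samples 10 and 11, against 4615 to 6930 in sham. The summed CPM of the 13 border macrophage and leukocyte markers was 10.0 and 12.8 in samples 10 and 11, within the sham range of 10.1 to 18.7 or just under it. Only 4 of those 13 markers passed the filter, and Cd3e was at 0 counts in 28 of 39 samples.

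Levels of the members were correlated across the 39 samples, which is a description of libraries that share tissue and scaling. Over the 45 pairs of members, Pearson's r of log2(CPM + 1) ran from 0.19 (Tmem119 with P2ry13) to 0.89 (Fcrls with Olfml3), with a median of 0.67, and Spearman's rho had a median of 0.54. Without samples 10 and 11 the median r was 0.52, the lowest was P2ry12 with Olfml3 at -0.00 and the highest again Fcrls with Olfml3 at 0.77. Against the mean z-score of all members, Cx3cr1 (0.92) and Csf1r (0.91) were closest and P2ry12 (0.63) and P2ry13 (0.57) farthest.

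Among the 8 other genes most like that mean over 39 samples were Mpeg1 (r = 0.94), Itgam (0.89), Cd33, Adgre1, Ctsd, Plek and Inpp5d (0.87). With the 12 group means removed they included Mpeg1 (0.94), Plek (0.91), Adgre1, Itgam, Rab7b, Ctsd and Inpp5d (0.88). Mpeg1 encodes a pore-forming protein of macrophages, Itgam an integrin chain, and Adgre1 the F4/80 antigen. By Spearman's rho, 5 and 7 of the 8 genes were also among the top 8.

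Other microglial genes were described from lists, beside the 10 members, in 5xCHI against 1xCHI. Of 25 other microglia-enriched genes, all tested, 3 rose, 0 fell and all 25 were positive (median 0.54, all features -0.00), where 0.512% of all features rose. Those that rose were Inpp5d, a lipid phosphatase (0.64 ± 0.12, adjusted p = 0.0189), Vsir, an immune checkpoint receptor (0.54 ± 0.11, 0.0209), and Laptm5, a lysosomal membrane protein (0.56 ± 0.14, 0.0473). Without samples 10 and 11 none of the 25 passed (median 0.20), with Inpp5d at 0.44 ± 0.10 and Vsir at 0.37 ± 0.09, both at an adjusted p of 0.0531 in edgeR, and Laptm5 at 0.26 ± 0.09 (0.124). In samples 1 to 18, where 14.2% of all features passed and 7.07% rose, 19 of the 25 rose (median 0.85), with Inpp5d at 0.98 ± 0.15, Vsir at 0.85 ± 0.14 and Laptm5 at 0.86 ± 0.17. In samples 19 to 40 none passed and 16 of 25 were positive (median 0.03), with these 3 genes at 0.11 ± 0.12, 0.03 ± 0.10 and -0.00 ± 0.08. The list had summed CPM of 461 to 489 in sham and 467 to 1595 in 5xCHI, where samples 10 and 11 had 1191 and 1595.

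Of the 20 disease-associated microglia genes, 16 were tested, 3 rose and 0 fell (median 0.45, against 0.512% of all features that rose), with Gpnmb, a lysosomal glycoprotein, at 2.48 ± 0.60 (adjusted p = 0.0340), Ccl6, a chemokine, at 1.30 ± 0.32 (0.0388) and Ctsd, a lysosomal protease, at 0.86 ± 0.22 (0.0423). Without samples 10 and 11 none of the 16 passed and 9 were positive (median 0.08), with Gpnmb at 0.51 ± 0.26, Ccl6 at 0.70 ± 0.25 and Ctsd at 0.30 ± 0.08 (adjusted p = 0.281, 0.139 and 0.0650, edgeR). In samples 1 to 18, 8 of 17 tested rose (median 0.72), against 7.07% of all features, and the 3 genes were at 3.02 ± 0.80, 1.84 ± 0.32 and 1.26 ± 0.31. In samples 19 to 40 none of 16 passed (median 0.04), and they were at 0.08 ± 0.39, -0.39 ± 0.28 and 0.06 ± 0.06. Cst7, Clec7a, Itgax and Lgals3 did not pass the filter, and Cst7 reached 4.5 and 5.5 CPM in samples 10 and 11. Of 10 lineage transcription factors, all tested, 1 rose and 0 fell (median 0.46), against 0.512% of all features that rose. Without samples 10 and 11, 1 of the 10 rose, where 0.059% of all features passed. In samples 1 to 18, 4 rose, against 7.07% of all features, and in samples 19 to 40 none passed. In the fit to all 39 samples, Irf8 (0.69 ± 0.19) and Runx1 (0.88 ± 0.28) had adjusted p of 0.0590 and 0.0976 in edgeR. Without samples 10 and 11 they were at 0.27 ± 0.11 and 0.43 ± 0.25, in samples 1 to 18 at 0.94 ± 0.28 and 1.48 ± 0.39, and in samples 19 to 40 at 0.19 ± 0.15 and -0.36 ± 0.34.

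Of 14 ligands and partners of the receptors, 0 passed in either direction, 5 had an unadjusted p under 0.05 in edgeR (16.4% of all features), and the median was 0.20. The fractalkine ligand Cx3cl1 was at -0.12 ± 0.10 (adjusted p = 0.573), and the Csf1r ligands Il34 and Csf1 were at -0.04 ± 0.08 (0.824) and 0.33 ± 0.14 (0.210). Entpd1, which degrades extracellular ATP and ADP, was at 0.25 ± 0.14 (0.400). Nrros (0.47 ± 0.13), which presents latent Tgfb1 on microglia, Tgfb1 (0.63 ± 0.21) and its receptor Tgfbr2 (0.34 ± 0.12) had adjusted p of 0.0643, 0.112 and 0.150. In samples 1 to 18, 4 of the 14 rose (median 0.34), against 7.07% of all features, and in samples 19 to 40 or without samples 10 and 11 none passed (medians -0.01 and 0.11).

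Markers of other cells were set beside these values. Of 8 astrocyte markers 0 passed (median 0.21), with Gfap at 1.56 ± 0.44 (adjusted p = 0.0648), Aldh1l1 at 0.46 ± 0.16 (0.126) and Slc1a3 at 0.20 ± 0.08 (0.222). Gfap was at 0.26 ± 0.24 without samples 10 and 11 (adjusted p = 0.551, edgeR), at 2.03 ± 0.53 in samples 1 to 18 (0.0275), where 4 of the 8 rose against 7.07% of all features, and at -0.48 ± 0.20 in samples 19 to 40 (0.588), so its direction turned there. Of 8 neuron markers 1 fell, the tubulin Tubb3 (-0.35 ± 0.07, 0.0187), while Camk2a and Gad1 were at 0.26 ± 0.14 (0.366) and 0.13 ± 0.10 (0.540). Tubb3 was at -0.31 ± 0.07 without samples 10 and 11 (adjusted p = 0.0531, edgeR), at -0.53 ± 0.06 in samples 1 to 18 (0.00315) and at -0.06 ± 0.08 in samples 19 to 40 (0.791). In samples 1 to 18 it was the 1 neuron marker of 8 that fell, while Gad1 (0.27 ± 0.08) and Gad2 (0.35 ± 0.10), which make GABA, rose (adjusted p = 0.0378 and 0.0455, edgeR), against 14.2% of all features that passed. None of the 8 passed without samples 10 and 11, and 7 were positive. None of the 6 oligodendrocyte, 6 endothelial, 6 meningeal fibroblast and 4 tested macrophage and leukocyte markers passed in edgeR. The smallest p among endothelial, fibroblast, and macrophage and leukocyte markers were those of Pecam1 (0.29 ± 0.14, adjusted p = 0.290), Slc6a13 (-0.73 ± 0.30, 0.221) and Lyve1 (-0.87 ± 0.28, 0.101). In samples 1 to 18, 2 of the 6 endothelial markers rose, against 7.07% of all features, Pecam1 among them (0.56 ± 0.15, adjusted p = 0.0314, edgeR), and Slc6a13 was at -1.11 ± 0.35 there against 0.37 ± 0.41 in samples 19 to 40. Cd68 mRNA, whose protein marks phagocytic microglia, was at 1.23 ± 0.34 (adjusted p = 0.0571) and that of the astrocyte protein S100b at 0.07 ± 0.10 (0.770). Cd68 was at 0.36 ± 0.18 without samples 10 and 11, at 1.62 ± 0.43 in samples 1 to 18 and at 0.22 ± 0.24 in samples 19 to 40 (adjusted p = 0.281, 0.0306 and 0.742, edgeR). The part of these cells in the members' values was not tested.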

How the data were processed

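Bulk RNA was sequenced from the left somatomotor cortex of 40 female mice, and sample 30 was left out as in the study. The authors' sequencing provider calculated the count matrix, which was deposited as estimated counts per gene (4.46% of values not whole), not normalized. The labels name the mouse build mm10, and 55450 of 55536 mouse gene identifiers matched GENCODE M21. Column headers end as Salmon's gene-level output does, while the tool, its version and the use of strand were not stated in the sources used here. Overlapping genes may therefore share reads.

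A feature was kept when no more than 4 samples had under 10 counts of it (15224 left), and counts were rounded. The quasi-likelihood test of edgeR 4.0.16 (R 4.3.3) with TMM factors was fitted to 12 groups in 39 samples. For the comparisons of each injury number with sham it was fitted to groups by injury number instead, with the times combined. Benjamini-Hochberg adjustment ran over all tested features with a threshold of 0.05. Pooled comparisons averaged the times with equal weight. Levels are CPM over all features, as mean ± SD, and correlations used log2(CPM + 1). The test was tried on simulated counts first. Total counts set the precision, and all 46 pairs of samples within groups differed by more than sampling noise. The alternatives were DESeq2 1.42.0, other scalings and filters, other sample sets, covariates for sample number, and each replicate left out. For single genes that passed in no setting, a change of sign was not counted as a reversal.

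The members and the gene lists were chosen with earlier results of these data known. Named genes were all members, the 3 genes with the smallest p in each other list (5xCHI against 1xCHI), Gfap, S100b and Cd68, and the genes most like the members. Cx3cl1, Il34, Csf1, Entpd1, C1qa, Snap25, Gad2, Cst7, Cd3e and Med12l were named after their values were seen. A few items are not reported here.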

Additional observations from a re-analysis of the deposited data

Results flagged for a closer look

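In 70 sets of 4 to 10 samples (10 members in 7 groups), 7 values lay further from their group than Dixon's criterion allows. In independent sets chance alone would flag about 3.5. Here the groups share samples and the members are correlated, so no excess can be read from this count. In 5xCHI at 24 h (n = 4), sample 11 was flagged high for Csf1r (161.8 CPM), Cx3cr1 (99.5 CPM), Fcrls (54.3 CPM) and Olfml3 (54.9 CPM). Sample 10 was not flagged, since pooled 5xCHI holds both high samples and its 4 h group has 3. In 3xCHI at 24 h (n = 4), sample 2 was high for Cx3cr1 (63.0 CPM). Over all 9 3xCHI samples, sample 5 was high for Tmem119 (29.2 CPM) and sample 4 low for Csf1r (73.9 CPM).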

How the results depend on the processing

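The calls in 5xCHI against 1xCHI moved with the setting. Of the 10 members, 2 were called in all 39 samples, 6 by DESeq2, 4 with the range of sample numbers as a covariate, 7 in samples 1 to 18 only, and 0 in samples 19 to 40 only, without samples 10 and 11, or with only the 6 groups compared. Over all features the same settings called 167, 523, 385, 2241, 7, 9 and 0. Leaving out each of the 20 replicates gave from 0 to 6 members and 0 to 643 features. No member was called without sample 7, 8, 10, 13, 14, 15, 16, 17 or 18 (9 of 20 fits). Leaving out sample 27 raised 1xCHI at 30 min from 0 to 1 member. Csf1r turned to -0.061 in samples 19 to 40. The settings with samples 10 and 11 left out, samples 1 to 18, and samples 19 to 40 in this comparison were chosen after seeing the data. Without filter, with stricter filter, other scalings or all 40 samples, 3 were called, and with sample number as a covariate 2. Counts over all features are not given for these settings, so the member counts there have no background beside them. In the other comparisons every remaining setting called 0 members. For single members in the comparisons with sham by injury number and with 1xCHI there were 1750 refitted values, of which 23 lost a call, 1 more (Csf1r in samples 19 to 40) lost it with a change of sign, 36 gained a call, and 79 changed sign in all. The 36 gains and 12 of the changes of sign were in 5xCHI against 1xCHI. TMM scaling changed CPM by a factor of 0.968 to 1.06. No paired analysis was possible because each sample number occurs once. The cause of these differences between settings was not tested. Depth limits single values of the lowest member, Siglech, to 127 counts at least.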

Other observations

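P2ry12 and P2ry13 lie within the span of Med12l on the other strand, and Gpr34 within that of Cask. The annotated span of Cx3cr1 overlaps 9 genes, 6 of them on the other strand, and that of Csf1r overlaps Hmgxb3 on the other strand and Mir6983 on its own, so the limit on shared reads applies to these members too. Med12l was at 48.1 ± 2.31 CPM in sham (SD, n = 4), 46.4 ± 3.92 after 1 injury (n = 10) and 42.7 ± 6.28 after 5 (n = 10), with its lowest value, 26.9 CPM, in sample 11. If counting ignored strand, reads of P2ry12 and Med12l could not be told apart where their exons overlap. The sample that the study left out, sample 30 (3xCHI at 4 h), had P2ry12 at 35.7, Csf1r at 76.2, Cx3cr1 at 46.8, Fcrls at 13.5 and Olfml3 at 13.8 CPM, and each of these values lay within the range of the 39 samples used.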
